A study of Mus musculus with 5 samples.

Results

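The effect of urban particulate matter was described from 2 of the 5 libraries of the series, the library of BV-2 cells exposed to particles (UPM) and the library of untreated cells (Cont), which is every library of these 2 groups. BV-2 is an established mouse microglial cell line, microglia being the resident macrophages of the brain. UPM cells received particulate matter at 50 µg/mL for 23 h. Cont cells are labelled as normal control (use of a vehicle: not given in the sources used here). Besides this pair, 3 libraries came from cells that received trazodone (TZ) at 1.25, 2.5 or 5 µg/mL for 1 h and then the same particles. Their levels are given beside the pair as values. Messenger RNA was read from its 3′ end (QuantSeq, oligo-dT primed) in single-end reads of 75 bp, so a count reflects the end of a transcript and does not grow with its length.

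Microglia take up particles by phagocytosis, digest them in lysosomes and can answer with oxidative stress genes and inflammatory mediators. Beyond these programs, a cell under load can shift its translation machinery, its lipid handling in peroxisomes and mitochondria, and its interferon genes. The integrated stress response is a pathway in which phosphorylation of the initiation factor eIF2 slows protein synthesis while the transcription factor ATF4 turns on genes of amino acid supply.

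The UPM library held 7696168 counts and the Cont library 7582187, and the 3 TZ libraries lay between 6829720 and 7251071. Levels are CPM, that is, counts scaled to a common library total, after correction with TMM factors of 0.994 for UPM and 0.991 for Cont. A count of 0 allows up to 3 counts, or 0.390 CPM in UPM and 0.396 CPM in Cont. With 1 library a side there was no replicate and no test of conditions, and the difference has no replicate check. Ratios of UPM over Cont carry 95% exact binomial counting intervals, given in parentheses, which cover counting error only and not the spread between cultures. Reads carry no molecular identifiers, so duplicate reads are counted too and the intervals may be too narrow. Genes with a mean of at least 10 CPM over both libraries counted as measured. A measured gene was called higher where its ratio reached 1.5, or lower where the inverse did, provided that 1 lay outside the counting interval.

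Of 8282 genes measured at this level, 138 were called higher in UPM (1.67%) and 117 lower (1.41%), together 3.08%. For comparison, the TZ 1.25 library set against UPM had 2.22% of 8336 genes called (1.19% higher, 1.03% lower), which is the share between libraries that both received particles. In a bulk library, fewer cells that express a gene and less RNA per cell cannot be told apart. Calls were unevenly spread over levels. Among genes with a mean of 10 to 30 CPM 7.13% were called, with 124 higher (4.23%) and 85 lower (2.9%). Among genes with a mean of at least 30 CPM 0.86% of 5351 were called, with 14 higher (0.262%) and 32 lower (0.598%). The interval lay wholly past 1.5 for 20 genes, 9 of them higher and 11 lower. At the limit of the call, Naxe (1.51) and Bax (0.663) stood just inside, and Kif2c (1.498) and Cwc25 (0.670) just outside.

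**Figure D1:**
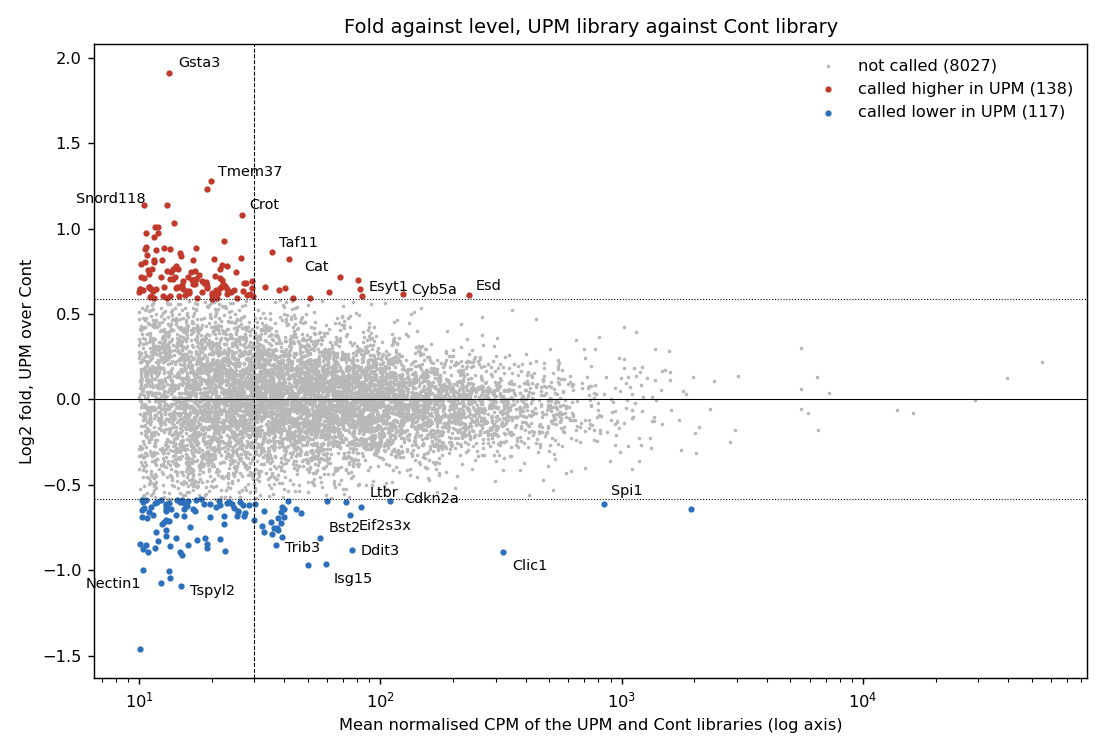
Log2 ratio of UPM over Cont (vertical axis) against the mean normalised CPM of both libraries (horizontal, log axis) for 8282 genes. Dotted lines mark 1.5 in either direction and the dashed line 30 CPM, to the right of which 14 genes were called higher (red) and 32 lower (blue).

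The spread narrowed with level, from a log2 range of -0.50 to 0.55 (5th to 95th percentile) at 10 to 30 CPM to -0.31 to 0.21 among the 510 genes at 300 CPM or more. The median shifted slightly with level too, at 0.02 in the lowest bin and -0.05 in the highest. In the highest bin 3 genes were called lower and 0 higher.

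Among the most abundant called genes were Spi1 and Clic1. Spi1 encodes PU.1, the transcription factor that defines macrophages and microglia, and had 666 CPM in UPM and 1017 CPM in Cont (0.655, 0.632 to 0.679). Its TZ values of 782, 803 and 623 CPM lay under Cont too. Clic1 encodes a chloride intracellular channel protein known in microglia, and had 225 CPM in UPM and 419 CPM in Cont (0.537, 0.506 to 0.570). Its TZ values were 380, 376 and 326 CPM, which left UPM as the lowest library.

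The most abundant genes called higher were enzymes and membrane proteins. Esd, a hydrolase of the formaldehyde detoxification route, had 280 CPM in UPM and 184 CPM in Cont (1.53, 1.42 to 1.63), with 252 to 267 CPM in the TZ libraries. Cyb5a, the cytochrome b5 that donates electrons to desaturases and P450 enzymes, had 150 CPM in UPM and 97.4 CPM in Cont (1.53, 1.40 to 1.69). Esyt1, a tether between the endoplasmic reticulum and the plasma membrane, had 100.1 CPM in UPM and 63.9 CPM in Cont (1.57, 1.40 to 1.76). For all 3 genes every TZ library stood above Cont. Stx2, a syntaxin of membrane fusion, had 101 CPM in UPM and 66.4 CPM in Cont (1.52, 1.36 to 1.71), and Cog5, a subunit of a Golgi tethering complex, had 74.1 CPM in UPM and 47.9 CPM in Cont (1.55, 1.35 to 1.77). For both, the TZ values lay between UPM and Cont. Also called higher at a mean of at least 30 CPM were Cnpy2, a saposin-like protein of the endoplasmic reticulum, at 1.57 (1.33 to 1.85), Naxe, which repairs hydrated NADH, at 1.51 (1.29 to 1.77), and Stac2, a regulator of calcium channels, at 1.51 (1.31 to 1.75). The antioxidant genes Cat (1.65, 1.45 to 1.87) and Gstm1 (1.768, 1.499 to 2.090) belong to the NRF2 program.

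**Figure D2:**
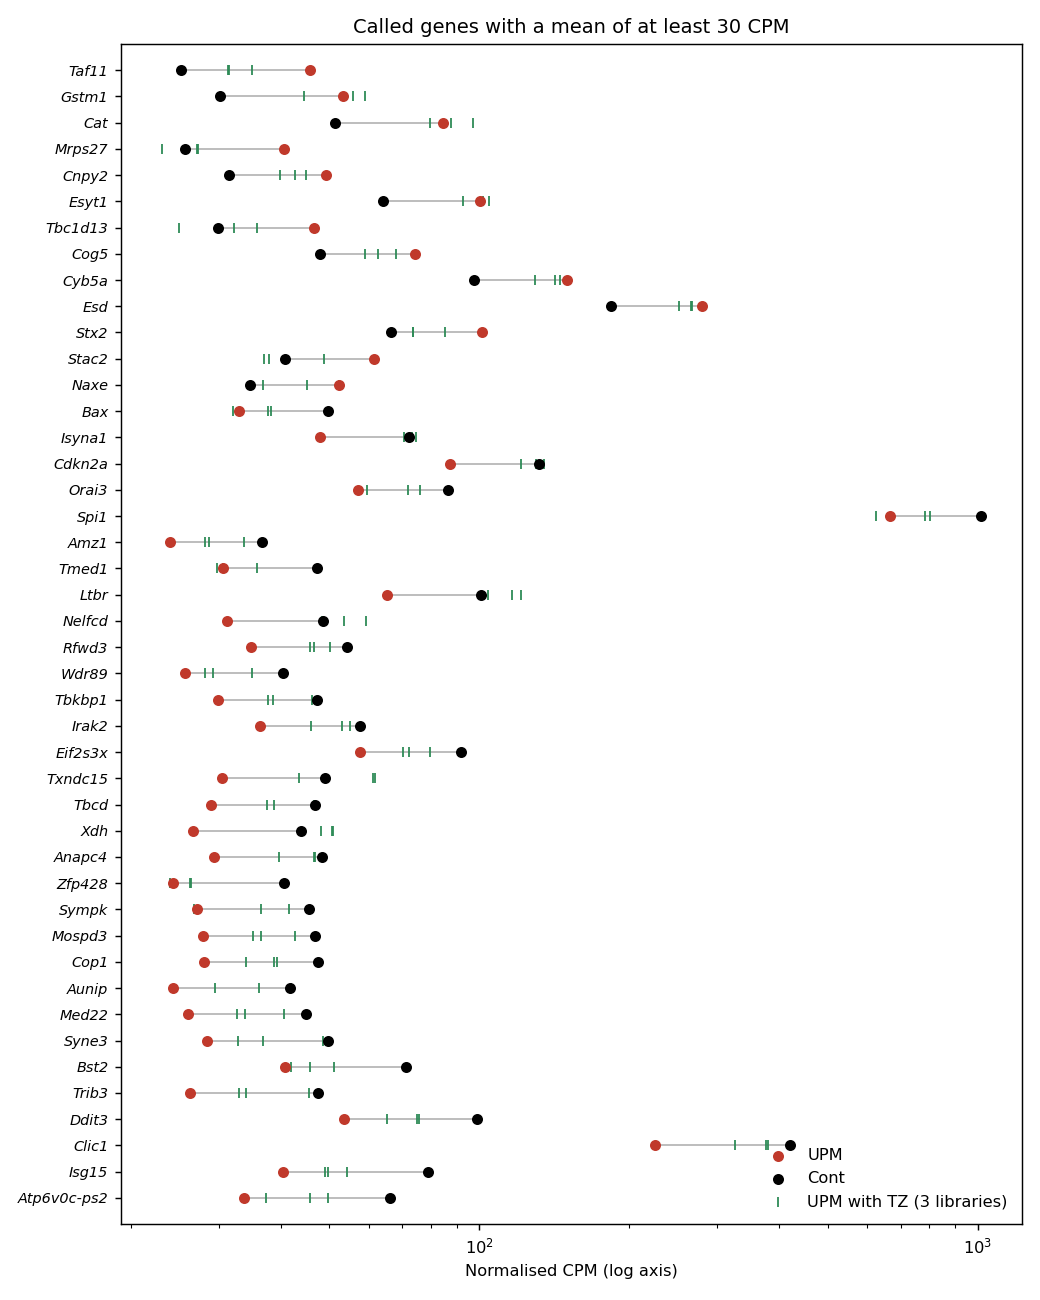
Normalised CPM (log axis) in the UPM library (red), the Cont library (black) and the 3 libraries with TZ (green ticks) for 44 called genes with a mean of at least 30 CPM. Spi1 and Clic1 are the most abundant of those drawn, and 31 of the 44 have UPM left of Cont.

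Other genes called lower at a mean of at least 30 CPM were of mixed roles. Ltbr, the lymphotoxin receptor that feeds the non-canonical NF-κB route, had 65.1 CPM in UPM and 101 CPM in Cont (0.645, 0.575 to 0.723), and 104 to 121 CPM in the TZ libraries. Irak2, a kinase of Toll-like receptor signalling, had 36.3 CPM in UPM and 57.6 CPM in Cont (0.630, 0.540 to 0.735). Orai3, a store-operated calcium channel, had 57.1 CPM in UPM and 86.5 CPM in Cont (0.660, 0.583 to 0.746). The cell cycle locus Cdkn2a, which encodes p16 and ARF, had 87.2 CPM in UPM and 132 CPM in Cont (0.661, 0.599 to 0.730), with 121 to 135 CPM with TZ. In Ltbr, Irak2 and Cdkn2a the UPM library was the lowest of the 5. Sympk, a scaffold of mRNA 3′-end processing, had a ratio of 0.594 (0.498 to 0.708), Nelfcd of the elongation-pausing complex 0.642 (0.543 to 0.758) and Anapc4 of the anaphase-promoting complex 0.606 (0.511 to 0.718). Further well-counted genes called lower were Isyna1, which makes inositol phosphate from glucose, at 0.663 (0.579 to 0.758), Txndc15, a thioredoxin-domain protein, at 0.622 (0.525 to 0.734), and Tmed1, a cargo receptor of the early secretory route, at 0.647 (0.546 to 0.765). They also included Tbkbp1, an adaptor of the kinase TBK1, at 0.633 (0.534 to 0.750), Syne3, a nuclear envelope nesprin, at 0.571 (0.481 to 0.677), and Aunip, a partner of Aurora A, at 0.583 (0.484 to 0.702). Mospd3 (0.594, 0.499 to 0.706), Wdr89 (0.635, 0.528 to 0.763) and the metalloprotease gene Amz1 (0.653, 0.539 to 0.791) were of this kind too, besides Atp6v0c-ps2, a pseudogene copy of a proton pump subunit whose reads may be shared with its parent gene, at 0.511 (0.438 to 0.595). The ubiquitin ligases Cop1 (0.589, 0.494 to 0.699) and Rfwd3 (0.640, 0.546 to 0.749) were called lower too.

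Gene families were then compared. There were 99, of which 97 had at least 10 measured members. Their medians of the log2 ratio ran from -0.22 to 0.22, against a median of -0.005 over all measured genes, with 13 families at -0.1 or lower and 7 at 0.1 or higher. Of these 97 families 44 had no member called. Of the 255 called genes 92 belonged to a family and 163 to none. The extremes were the integrated stress response and the NRF2 targets, glutathione and antioxidant genes used here as a yardstick, with 6 of 30 measured members called higher and a median of 0.22.

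The integrated stress response had the lowest median of all families. Of 32 genes, 23 were measured, 2 were called lower and 0 higher, and 20 had a ratio under 1, with a median log2 ratio of -0.22. Ddit3, the transcription factor CHOP, had 53.6 CPM in UPM and 98.6 CPM in Cont (0.543, 0.480 to 0.614), and 65.3 to 75.6 CPM with TZ. Trib3, a pseudokinase induced by ATF4 and CHOP, had 26.3 CPM in UPM and 47.4 CPM in Cont (0.554, 0.464 to 0.661), and 45.5, 33.9 and 32.9 CPM by rising TZ dose. The UPM library was the lowest of the 5 for both. Atf4 itself had 525 CPM in UPM and 702 CPM in Cont (0.748, 0.718 to 0.780), which was under the size of a call. Slc7a5, a transporter of large neutral amino acids, had a ratio of 0.678 (0.592 to 0.776) and Asns, asparagine synthetase, 0.915 (0.805 to 1.04). Atf4, Slc7a5 and Asns were chosen after their values were seen. Summed over all 32 genes the family had 2493 CPM in UPM and 2937 CPM in Cont (0.849, 0.833 to 0.866), and 2675 to 2734 CPM with TZ.

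The synthetases that load tRNAs and the one-carbon genes had medians under 0 without a called member, and polyamine genes had 2 called lower. Family lists can share genes, so their medians are not fully separate. The one-carbon list and the integrated stress response list had the same highest log2 ratio (0.529). Of 32 measured aminoacyl-tRNA synthetases and their scaffold proteins 0 were called and 24 had a ratio under 1, with a median of -0.13. Sars, the seryl-tRNA synthetase, had 276 CPM in UPM and 369 CPM in Cont (0.750, 0.708 to 0.794), and Yars2, the mitochondrial tyrosyl enzyme, had 28.6 CPM in UPM and 38.6 CPM in Cont (0.741, 0.619 to 0.887). Of 16 measured genes of one-carbon and serine metabolism 0 were called, with a median of -0.14. Its member Slc25a32, the mitochondrial folate carrier, had a ratio of 0.765 (0.693 to 0.845). Polyamine and arginine metabolism had a median of -0.19, with 2 of 13 members called lower and 0 higher. These were Oaz2, an antizyme that limits polyamine synthesis, at 19.2 CPM in UPM and 29.4 CPM in Cont (0.653, 0.526 to 0.808), and Nos2, the inducible nitric oxide synthase, at 11.8 CPM in UPM and 17.8 CPM in Cont (0.659, 0.499 to 0.868). Both were among the 4 members with a mean under 30 CPM, where 7.13% of all genes were called. Of the 9 members at 30 CPM or more 0 were called.

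The Trib3 promoter is shown because Trib3 is the called member that carries a match to a CARE, the element bound by ATF4 with C/EBP factors. The sequence, from RefSeq on GRCm38.p6, is chr2:152344011-152344310 on the minus strand, printed 5′ to 3′ in the direction of the gene, from 250 bases before its start to 50 after it. Capitals mark the match to TGATGNAA, which lies on the opposite strand and was searched on both.
Trib3: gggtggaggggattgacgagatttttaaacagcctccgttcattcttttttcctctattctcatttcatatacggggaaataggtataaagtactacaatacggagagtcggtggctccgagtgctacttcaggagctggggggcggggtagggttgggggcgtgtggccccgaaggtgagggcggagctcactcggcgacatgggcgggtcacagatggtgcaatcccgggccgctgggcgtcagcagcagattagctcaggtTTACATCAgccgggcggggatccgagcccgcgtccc
Of the 21 measured members of the integrated stress response with a promoter in the table, 7 held a match (33.3%), against 1304 of 32851 promoters of this length (3.97%). Their median log2 ratio was -0.13, and that of the 14 without a match -0.21. A match is a description of letters and not of binding.

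Most translation factors and nucleolar genes had ratios a little under 1. Of all genes measured 50.9% did, with a median of -0.03 at 100 to 300 CPM and -0.05 at 300 CPM or more. Of 54 measured initiation and elongation factors, 1 was called lower, 0 higher, and 42 had a ratio under 1, with a median of -0.11. The called gene was Eif2s3x, the X-linked gamma subunit of eIF2, with 57.5 CPM in UPM and 92.0 CPM in Cont (0.625, 0.553 to 0.706), and 70.3 to 79.7 CPM with TZ. Of 58 measured proteins of small nucleolar ribonucleoproteins and ribosome assembly, 0 were called and 47 had a ratio under 1, with a median of -0.13 and a summed level of 10643 CPM in UPM and 11954 CPM in Cont (0.890, 0.882 to 0.899). Dkc1, the pseudouridine synthase of these particles, had 608 CPM in UPM and 803 CPM in Cont (0.757, 0.729 to 0.787). Polr1c, a subunit of RNA polymerases I and III, lay the other way at 54.4 CPM in UPM and 39.3 CPM in Cont (1.38, 1.19 to 1.61).

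Ribosomal proteins themselves lay near the median of all genes. Of 82 measured ribosomal protein genes, 1 was called lower, 0 higher, 43 had a ratio over 1, and the median was 0.02. The called symbol was Rps27rt, a copy of Rps27, whose reads may be shared with its parent gene, so its value is uncertain. Summed ribosomal protein counts gave 31684 CPM in UPM and 31418 CPM in Cont (1.01, 1.00 to 1.01). Of 75 measured mitochondrial ribosomal proteins 1 was called higher, Mrps27, at 40.5 CPM in UPM and 25.7 CPM in Cont (1.58, 1.31 to 1.90), and the family median was -0.05.

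The TRiC chaperonin, which folds actin and tubulin, and its partner prefoldin had 0 of 14 members called, 10 with a ratio under 1 and a median of -0.11. Cct7 had 334 CPM in UPM and 492 CPM in Cont (0.679, 0.645 to 0.714), close to the limit of 1.5, and 396 to 437 CPM with TZ. Of 105 measured splicing factors 0 were called, 75 had a ratio under 1 and the median was -0.10. Srsf4, a serine-arginine rich splicing factor, had a ratio of 0.690 (0.590 to 0.807) and Prpf19, of the Prp19 complex, 0.716 (0.623 to 0.821). Over the 6 families of RNA processing together, 187 of 282 measured genes (66.3%) had a ratio under 1, against 50.9% of all genes measured. Heat shock proteins (37 measured), chaperones of the endoplasmic reticulum (38) and proteasome subunits (46) had 0 members called and medians of -0.04, 0.04 and -0.06.

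Peroxisomal fatty acid enzymes gave the largest share of calls after the NRF2 targets among the families with more than 20 measured members, the 17 measured small nucleolar RNAs having a larger one (23.5%). Peroxisomes shorten very long and branched fatty acids and pass the products on to mitochondria. Of 34 genes 25 were measured, 4 were called higher (16%) and 0 lower, with a median log2 ratio of 0.10. Over all measured genes 1.67% were called higher and 1.41% lower. Of the 14 members with a mean under 30 CPM 3 were called, a level at which 7.13% of all genes were. Of the 11 above it 1 was called, where 0.86% of all genes were. Crot, which moves shortened acyl chains onto carnitine for export, had 36.3 CPM in UPM and 17.2 CPM in Cont (2.12, 1.71 to 2.63). Its TZ values were 26.1, 20.6 and 20.3 CPM, between the 2 libraries of the pair. Mlycd, malonyl-CoA decarboxylase, had 17.4 CPM in UPM and 10.2 CPM in Cont (1.70, 1.27 to 2.28), and Decr2, a reductase of unsaturated acyl-CoA, had 29.3 CPM in UPM and 18.9 CPM in Cont (1.55, 1.25 to 1.92).

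Neighbouring lipid families had fewer calls. Peroxisome biogenesis factors had 0 of 12 members called, 6 of them with a ratio over 1, and mitochondrial fatty acid oxidation had 0 of 20 called and a median of 0.04. LXR targets and cholesterol efflux genes, which answer to oxysterols, had a median of 0.20, with 1 of 12 called higher and 0 lower. That gene was Scd1, the stearoyl-CoA desaturase, with 21.3 CPM in UPM and 12.6 CPM in Cont (1.68, 1.30 to 2.19), and 11.6 to 13.9 CPM with TZ, so UPM was the highest. Cholesterol synthesis had 0 of 24 called, 12 of them with a ratio over 1. In sphingolipid metabolism 1 of 23 members was called higher, Smpd1, the acid sphingomyelinase of lysosomes, with 24.2 CPM in UPM and 15.8 CPM in Cont (1.53, 1.21 to 1.94). Plin2, which coats lipid droplets, had 160 CPM in UPM and 215 CPM in Cont (0.744, 0.690 to 0.802) in a family with 0 of 20 members called.

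Interferon-stimulated genes had calls both ways. The list had 49 measured members and a median of -0.04, and 2 were called lower and 2 higher. The 2 called lower were among the 28 members at 30 CPM or more, where 0.86% of all genes were called. The 2 called higher were among the 21 members under 30 CPM, where 7.13% of all genes were called. Isg15, a ubiquitin-like modifier, had 40.3 CPM in UPM and 78.7 CPM in Cont (0.512, 0.444 to 0.588), and 49.1, 49.7 and 54.1 CPM by rising TZ dose. Bst2, the tetherin that holds budding viruses, had 40.6 CPM in UPM and 71.2 CPM in Cont (0.571, 0.495 to 0.658), and 51.0, 45.8 and 41.8 CPM with TZ. Cont was the highest of the 5 libraries for both. Ifi27l2a, an interferon-induced membrane protein, had 26.8 CPM in UPM and 16.4 CPM in Cont (1.64, 1.30 to 2.06), and 16.2 to 16.5 CPM with TZ. Xaf1, a pro-apoptotic interferon target, had 20.9 CPM in UPM and 13.8 CPM in Cont (1.51, 1.17 to 1.95). For these 2 genes UPM was the highest library. The receptor gene Ifnar1, which is not in the list, was called higher at 21.3 CPM in UPM and 13.04 CPM in Cont (1.63, 1.26 to 2.12).

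Promoters of Isg15 and Bst2 are shown because these 2 called genes hold matches to the interferon-stimulated response element, searched on both strands as 2 copies of GAAA with 2 bases of any kind between them. They are RefSeq sequences on GRCm38.p6, both on the minus strand and printed 5′ to 3′ in the direction of the gene, for Isg15 chr4:156200769-156201068 and for Bst2 chr8:71537423-71537722, from 250 bases before the start to 50 after it. Capitals mark the matches, which overlap, 3 in Isg15 and 2 in Bst2.
Isg15: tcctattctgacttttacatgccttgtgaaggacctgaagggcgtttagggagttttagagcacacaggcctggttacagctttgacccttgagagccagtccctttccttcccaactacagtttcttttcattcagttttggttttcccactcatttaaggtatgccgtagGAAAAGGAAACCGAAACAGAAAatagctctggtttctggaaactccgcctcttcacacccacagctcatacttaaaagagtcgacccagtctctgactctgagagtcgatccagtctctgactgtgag
Bst2: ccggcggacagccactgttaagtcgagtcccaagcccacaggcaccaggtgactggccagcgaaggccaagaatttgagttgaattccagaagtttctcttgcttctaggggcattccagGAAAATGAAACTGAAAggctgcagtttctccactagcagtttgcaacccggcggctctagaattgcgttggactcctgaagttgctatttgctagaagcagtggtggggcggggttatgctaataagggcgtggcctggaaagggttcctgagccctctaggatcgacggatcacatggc
Of the 39 measured interferon-stimulated genes with a promoter in the table, 16 held a match (41.0%), against 3.44% of 32851 promoters. Among the 16 the median log2 ratio was -0.07, and among the 23 without a match -0.05. Ifit1 (1.22, 0.916 to 1.62) and Rsad2 (0.738, 0.646 to 0.843), chosen after their values were seen, held the match and were not called.

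Growth signalling through mTOR, the kinase complex that couples nutrients to growth, had 5 of 54 measured members called, 4 higher and 1 lower, with a median of 0.03. Higher were Rptor, the scaffold of complex 1, with 20.5 CPM in UPM and 12.6 CPM in Cont (1.62, 1.25 to 2.12), and Tsc2, its upstream inhibitor, with 17.0 CPM in UPM and 10.1 CPM in Cont (1.68, 1.26 to 2.26). Mios, a member of the GATOR2 complex, had 12.9 CPM in UPM and 7.45 CPM in Cont (1.74, 1.24 to 2.45), and Prkab1, a subunit of the energy sensor AMPK, had 13.9 CPM in UPM and 9.18 CPM in Cont (1.51, 1.10 to 2.07). Lower was Mlst8, a subunit of both mTOR complexes, with 10.5 CPM in UPM and 19.7 CPM in Cont (0.531, 0.399 to 0.701). The called members thus include subunits of complex 1 and its upstream inhibitor Tsc2. All 5 were among the 19 members under 30 CPM, where 7.13% of all genes were called. Of the 35 members at 30 CPM or more 0 were called.

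Lysosomal and autophagy genes were called in both directions. Of 38 measured lysosomal hydrolases and membrane proteins 2 were called higher, Smpd1 and Tfeb, and 2 lower, Galns and Sgsh. Tfeb, the regulator of lysosomal gene expression, had 13.5 CPM in UPM and 8.52 CPM in Cont (1.58, 1.15 to 2.19). The sulfatases Galns, with 10.1 CPM in UPM and 16.5 CPM in Cont (0.610, 0.453 to 0.817), and Sgsh, with 14.6 CPM in UPM and 22.4 CPM in Cont (0.655, 0.511 to 0.836), degrade glycosaminoglycans. All 4 were among the 9 members under 30 CPM. In autophagy 1 of 38 was called higher, Wdr45, a lipid-binding protein of forming autophagosomes, at 14.4 CPM in UPM and 6.52 CPM in Cont (2.20, 1.56 to 3.15), and 1 lower, Ambra1, a regulator of the initiating complexes (0.653, 0.513 to 0.828). Cathepsins and cystatins had 0 of 13 called, 9 with a ratio over 1 and a summed level of 17242 CPM in UPM and 15742 CPM in Cont (1.10, 1.09 to 1.10). V-ATPase subunits, which acidify the lysosome, had 0 of 15 called and a median of 0.03.

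The families of membrane traffic and the cytoskeleton together had 7 members called higher and 1 lower among 430 measured, against 1.67% higher and 1.41% lower over all measured genes. Of 36 measured SNAREs and their partners, which fuse vesicles with target membranes, 3 were called higher and 0 lower, Stx2, Gosr1 and Stx5a, while 19 of the 36 had a ratio under 1. Of the 10 members under 30 CPM 2 were called, a level at which 4.23% of all genes were called higher. Of the 26 above it 1 was called, where 0.262% of all genes were called higher. Gosr1, a Golgi SNARE, had 36.2 CPM in UPM and 22.4 CPM in Cont (1.62, 1.33 to 1.97), with 22.5 to 25.1 CPM with TZ. Among 64 measured Rab GTPases and regulators 2 were called higher and 0 lower, Rab43 at 15.2 CPM in UPM and 8.25 CPM in Cont (1.84, 1.34 to 2.54) and Tbc1d13 at 46.5 CPM in UPM and 29.8 CPM in Cont (1.56, 1.32 to 1.85). Cog5 was the called member of 96 sorting and tethering genes, and 0 of 51 coat and adaptor genes were called. Actin regulators had 0 of 55 members called, and of 61 tubulins, kinesins and dyneins 1 was called higher, Kif18a (1.58, 1.19 to 2.09), and 1 lower, the tubulin cofactor Tbcd (0.618, 0.520 to 0.734).

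Transcription machinery had calls both ways. Of 70 measured genes of RNA polymerase II, its general factors and Mediator, 1 was called higher and 3 lower. Taf11, a subunit of TFIID, had 45.7 CPM in UPM and 25.2 CPM in Cont (1.82, 1.52 to 2.18), with 31.3 to 34.9 CPM with TZ. Med22 of the Mediator head had 26.01 CPM in UPM and 44.9 CPM in Cont (0.580, 0.484 to 0.693), Gtf2h4 of TFIIH 13.6 CPM in UPM and 24.5 CPM in Cont (0.555, 0.432 to 0.710), and Med31 had a ratio of 0.657 (0.490 to 0.878). Among 125 measured C2H2 zinc finger genes 2 were called higher and 4 lower. Zfp414 and Zfp41 were called higher at 2.01 each, and Zfp428 lower at 24.3 CPM in UPM and 40.6 CPM in Cont (0.599, 0.496 to 0.721). Among chromatin regulators 1 of 81 was called, Setd7, a lysine methyltransferase (1.501, 1.19 to 1.90). Mybl1, a Myb family factor, had 18.8 CPM in UPM and 9.18 CPM in Cont (2.05, 1.53 to 2.77), and 11.5, 11.3 and 7.25 CPM by rising TZ dose. Nuclear receptors had 1 of 22 called lower, Esrra, the oestrogen-related receptor of mitochondrial genes, at 16.9 CPM in UPM and 28.0 CPM in Cont (0.603, 0.481 to 0.755).

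Genes of the cell cycle had few calls. DNA replication genes had 0 of 51 called and a median of -0.12, with 87.3 CPM in UPM and 126 CPM in Cont for Rpa2, a subunit of the single-strand binding complex (0.695, 0.628 to 0.768). Mitosis and spindle genes had 1 of 53 called higher, Kif18a, and a median of 0.04. The proliferation marker Mki67, chosen after its value was seen, had 497 CPM in UPM and 452 CPM in Cont (1.10, 1.05 to 1.15). The p53 targets, with 17 measured, had a median of -0.15, and 2 were called lower and 0 higher. They were Bax, the pore-forming protein of apoptosis, at 32.9 CPM in UPM and 49.6 CPM in Cont (0.663, 0.563 to 0.780), and Polk, a translesion polymerase, at 8.49 CPM in UPM and 12.8 CPM in Cont (0.665, 0.478 to 0.920). In DNA repair, with 54 measured, 1 was called higher and 1 lower, both among the 30 members under 30 CPM, where 7.13% of all genes were called. Ercc1, a nuclease subunit of excision repair, was called higher at 13.7 CPM in UPM and 7.45 CPM in Cont (1.84, 1.32 to 2.59). The member called lower was Polk, which is in this list too.

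Small nucleolar RNAs, which guide modification and cleavage of ribosomal RNA and carry no poly(A) tail, formed the family with the highest median after NRF2 and LXR targets. Of 155 symbols 17 were measured, 3 were called higher, 1 lower and 13 had a ratio over 1, with a median of 0.17. All 4 called members were among the 14 under 30 CPM, where 7.13% of all genes were called. Snord118, the U8 RNA needed for processing of the large ribosomal subunit RNAs in vertebrates, had 17.9 CPM in UPM and 8.12 CPM in Cont (2.21, 1.62 to 3.03), and 15.9, 8.23 and 7.83 CPM by rising TZ dose. Snora20 had 21.3 CPM in UPM and 13.04 CPM in Cont (1.63, 1.26 to 2.12), and Snora5c had 13.7 CPM in UPM and 8.25 CPM in Cont (1.66, 1.203 to 2.31). Scarna9, a guide RNA of Cajal bodies, was called lower at 20.0 CPM in UPM and 31.5 CPM in Cont (0.634, 0.514 to 0.780). The list holds names of the Snora, Snord and Scarna kind, and leaves out 3 predicted genes of GENCODE's small nucleolar or Cajal body types that were called higher, Gm24029 (2.35), Gm24451 (1.66) and Gm22767 (1.55). Summed over the family the level was 1111 CPM in UPM and 900.3 CPM in Cont (1.235, 1.196 to 1.275), and 1034, 669 and 483 CPM by rising TZ dose. Libraries were primed with oligo-dT, so these counts need priming within or beyond the RNA, and the part of that in the difference was not tested.

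The U8 RNA is printed because it had the highest ratio among the 17 measured members of the list. The sequence is the GENCODE vM21 transcript of Snord118 on chromosome 11, 135 bases, with box C (TGATGA) and the last CTGA, the letters of box D, in capitals.
Snord118: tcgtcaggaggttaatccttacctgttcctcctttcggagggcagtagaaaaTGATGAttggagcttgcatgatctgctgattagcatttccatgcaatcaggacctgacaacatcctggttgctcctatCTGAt
Of the 38 host and other long non-coding RNAs 20 were measured and 1 was called higher, Snhg1, which hosts small nucleolar RNAs in its introns, with 33.7 CPM in UPM and 22.1 CPM in Cont (1.53, 1.25 to 1.87). The median of that family was -0.15, with 15 of 20 members under 1.

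Mitochondrial families gave few calls. Complex I (36 measured), complexes II to IV (25) and ATP synthase (15) had 0 members called, with medians of 0.01, 0.07 and 0.07. RNAs encoded by the mitochondrial genome had 0 of 9 called and a summed level of 125829 CPM in UPM and 117835 CPM in Cont (1.068, 1.065 to 1.071). Within them mt-Rnr2, the large ribosomal RNA, had a ratio of 1.17 (1.16 to 1.17), mt-Rnr1, the small one, 0.998 (0.992 to 1.00), and COX1 1.22 (1.19 to 1.25). Chchd2, a protein of the intermembrane space, had 947 CPM in UPM and 1259 CPM in Cont (0.753, 0.730 to 0.776) in an import and protein quality family with 0 of 34 called. Among mitochondrial carriers Slc25a23, which exchanges ATP-magnesium for phosphate, was called lower at 15.0 CPM in UPM and 24.2 CPM in Cont (0.620, 0.487 to 0.788).

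Iron and selenium genes differed by less than the size of a call. Iron and haem handling had 0 of 30 called, yet a summed level of 11505 CPM in UPM and 10057 CPM in Cont (1.14, 1.13 to 1.16), with 11262 to 11754 CPM with TZ. Much of that sum was Fth1, ferritin heavy chain, with 6085 CPM in UPM and 4933 CPM in Cont (1.23, 1.22 to 1.25). Blvrb, a biliverdin and flavin reductase, had 125 CPM in UPM and 84.4 CPM in Cont (1.48, 1.34 to 1.64), and Hmox2, the constitutive haem oxygenase, had 57.1 CPM in UPM and 83.7 CPM in Cont (0.682, 0.602 to 0.772). Selenoproteins had 0 of 22 called, 14 with a ratio over 1 and a median of 0.12, led by Selenop, a selenium carrier, with 81.9 CPM in UPM and 59.6 CPM in Cont (1.37, 1.22 to 1.55). Fth1 and Blvrb are also NRF2 targets.

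Nucleotide metabolism had 1 of 43 called higher and 2 lower. Ada, adenosine deaminase, had 22.9 CPM in UPM and 14.2 CPM in Cont (1.61, 1.26 to 2.06). Xdh, xanthine dehydrogenase of purine breakdown, had 26.7 CPM in UPM and 43.8 CPM in Cont (0.609, 0.509 to 0.727), and Nt5c3b, a nucleotidase, had 6.93 CPM in UPM and 13.8 CPM in Cont (0.5003, 0.352 to 0.703). For Xdh the TZ libraries had 48.2 to 50.8 CPM, all above both libraries of the pair. Glycolysis (20 measured), the TCA cycle (27) and the pentose phosphate route (11) had 0 members called and medians of 0.01, 0.04 and 0.03.

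Surface receptors and microglial state genes completed the description. Of 29 measured purinergic and other G protein-coupled receptors 3 were called higher and 0 lower. All 3 were among the 15 members under 30 CPM, where 4.23% of all genes were called higher. Of the 14 members at 30 CPM or more 0 were called. The called receptors were Adgre5, the adhesion receptor CD97, with 35.9 CPM in UPM and 22.9 CPM in Cont (1.57, 1.29 to 1.91), Lpar6, a lysophosphatidic acid receptor, with 20.5 CPM in UPM and 12.2 CPM in Cont (1.68, 1.29 to 2.19), and Gpr183, an oxysterol receptor, with 14.2 CPM in UPM and 8.39 CPM in Cont (1.70, 1.23 to 2.35). Disease-associated microglia genes had 0 of 24 called, 16 with a ratio over 1 and a median of 0.10. In that list Timp2, a metalloprotease inhibitor, had 1303 CPM in UPM and 991.8 CPM in Cont (1.31, 1.27 to 1.35). Fc and scavenger receptors (22 measured), complement (10) and MHC class I with antigen presentation (17) had 0 called. Microglial identity genes had 1 of 21 called, Spi1, and a median of 0.03. Csf1r, the receptor on which microglia depend for survival and a gene that PU.1 is known to bind, had 586 CPM in UPM and 636 CPM in Cont (0.921, 0.884 to 0.960).

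Among surface, secreted and channel genes, Vwf, the von Willebrand factor, had 29.4 CPM in UPM and 15.4 CPM in Cont (1.90, 1.52 to 2.40), and 26.5 to 28.4 CPM with TZ, so Cont alone was low. Tmem37, a calcium channel gamma-like subunit, had 28.1 CPM in UPM and 11.6 CPM in Cont (2.43, 1.88 to 3.15), with 19.5 to 24.8 CPM with TZ. Srgn, the core protein of secretory granule proteoglycan, had 15.9 CPM in UPM and 8.12 CPM in Cont (1.96, 1.43 to 2.72). Nectin1, a cell adhesion molecule, had 7.97 CPM in UPM and 16.8 CPM in Cont (0.475, 0.344 to 0.650), and the integrin gene Itga5 had a ratio of 0.635 (0.471 to 0.853). Dusp8, a MAP kinase phosphatase, was called lower (0.544, 0.385 to 0.762), Map4k3 higher (1.79, 1.36 to 2.38) and Mapk10 lower (0.641, 0.479 to 0.855). Of the RING finger proteins Rnf19a was called higher (1.54, 1.23 to 1.94) and Rnf144b lower (0.537, 0.383 to 0.747). Also called higher were Klf10, a TGF-beta induced factor, at 1.70 (1.28 to 2.26), the RNA helicase gene Dhx57 at 1.64 (1.17 to 2.31), Tmem71 at 1.96 (1.40 to 2.78), and Il2rg, the shared gamma chain of interleukin receptors, at 1.52 (1.14 to 2.04). Called lower were Usp32, a deubiquitinase (0.539, 0.404 to 0.714), Cnot4, of the deadenylase complex (0.652, 0.531 to 0.798), Adamts10, a matrix protease (0.655, 0.485 to 0.879), and Tspyl2, a nucleosome assembly protein (0.468, 0.349 to 0.623). The Wnt co-receptor gene Lrp5 was called lower at 17.3 CPM in UPM and 27.7 CPM in Cont (0.623, 0.497 to 0.779).

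Properties of the called genes and the identity of the cells were checked. All 12 microglia and macrophage markers were measured, summing to 4843 CPM in UPM and 5194 CPM in Cont. Spi1 alone, at 666 CPM in UPM and 1017 CPM in Cont, differed by about as much as the sums. Among the markers of homeostatic brain microglia Sall1, Siglech and Gpr34 were at 0 counts in both libraries, P2ry12 had 9 counts in UPM and 5 in Cont, and Tmem119 had 57 counts in UPM and 23 in Cont, so macrophage markers were present while these defining homeostatic markers were at 0 or low. Markers of neurons, astrocytes, oligodendrocytes, fibroblasts and lymphocytes summed to at most 3.01 CPM in UPM and 2.13 CPM in Cont per list, and of the endothelial and neutrophil lists Kdr and S100a8 were measured, at 14.8 CPM in UPM and 14.9 CPM in Cont for Kdr. Transcripts of genes called higher had a median GC content of 48.9%, those of genes called lower 53.4%, and those of all measured genes 49.1%, with 95.7%, 95.7% and 97.8% of the genes matched to GENCODE vM21. At a mean of at least 30 CPM these medians were 52.9% for genes called higher, 55.1% for genes called lower and 48.7% for all measured. The part of GC content in the calls was not tested. By RefSeq type, 124 of the 138 genes called higher and 105 of the 117 called lower were protein-coding. The 6 pseudogenes called were lower. Measured genes were not counted by type, so no share called can be set beside these counts.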

How the data were processed

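Total RNA of BV-2 cells was made into 3′ libraries with oligo-dT priming and a random-primed second strand, and sequenced in single-end reads of 75 bp from RNA with an integrity number above 8.0, per the labels' protocols. The authors deposited raw counts for each gene symbol. STAR, edgeR and GRCm39 are named without version in the submitters' processing notes. Counting program, annotation and strand setting: not given in the sources used here. Genes that overlap or share sequence may therefore share reads.

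From the counts, TMM factors over all 5 libraries (edgeR 4.0.16, R 4.3.3) gave normalised CPM, and intervals came from an exact conditional binomial (Clopper-Pearson) calculation (Python 3.11.15, scipy 1.17.1) that was tested on simulated data. Groups were taken from the labels, with 1 library each. Alternatives were DESeq2 1.42.0 size factors, total counts, TMM over the pair, other minimum levels and folds, and thinning of the deeper library. Genes named are every called gene with a mean of at least 30 CPM or an interval wholly past 1.5, up to 2 highest and 2 lowest called members of a family and, in families without calls, up to 2 members with the largest difference at 30 CPM or more. Predicted genes were left out, and members and lists were chosen with earlier results of these data known. In 4 families the symbol pattern was corrected after the files were seen. Other genes named were chosen after their values were seen. Promoters are RefSeq on GRCm38.p6, and the counts were not tied to coordinates. Results for a few genes are not reported here.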

Additional observations from a re-analysis of the deposited data

How the results depend on the processing

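The 138 genes called higher and 117 called lower became 137 and 117 with DESeq2 size factors, 137 and 110 with total counts, 135 and 115 with TMM over the pair and 137 and 115 after thinning, and of the 255 genes 254, 245, 250 and 242 were also called. Polk was not called with total counts and Xaf1 not after thinning. With a fold of at least 2 there were 9 higher and 5 lower. Fewer or more genes entered with other minimum levels, with 14 higher and 32 lower at a mean of at least 30 CPM, 544 and 413 at a mean of at least 1 CPM, and 708 and 552 with no minimum. The integrated stress response had a median between -0.22 and -0.21 over its alternatives, the peroxisomal fatty acid enzymes between 0.07 and 0.13 and the small nucleolar RNAs between 0.15 and 0.36. Medians near 0 changed sign in some settings, as in mTOR signalling at a mean of at least 30 CPM (-0.00). No paired analysis was possible because each group had 1 library and no replicate numbers. At 10 to 30 CPM the counting interval reached about 0.35 to either side on the log2 scale, which limits what single genes there can show, and no value covers the spread between cultures.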

Other observations

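Among genes with a mean of 1 to 10 CPM, below the minimum, 21 symbols had an interval wholly past 2 in either direction, 14 of them higher in UPM and 7 lower, chosen here after their values were seen. They were picked from many, as 11941 genes had a mean of at least 1 CPM and 8282 of these at least 10 CPM. Ifitm6, a member of the interferon-induced transmembrane family, had 74 counts in UPM and 21 in Cont, a ratio of 3.46 (2.11 to 5.92). The small nucleolar RNA Snora7a had 47 counts in UPM and 10 in Cont, a ratio of 4.61 (2.30 to 10.2). Another, Snora16a, had 2 counts in UPM and 21 in Cont, a ratio of 0.0935 (0.0106 to 0.383). Capn10, a calpain protease, had 50 counts in UPM and 11 in Cont, a ratio of 4.46 (2.29 to 9.51). Rbks, the ribokinase that phosphorylates ribose, had 41 counts in UPM and 5 in Cont, a ratio of 8.05 (3.18 to 26.1), and Proser3 had 3 counts in UPM and 28 in Cont, a ratio of 0.105 (0.0205 to 0.341).

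Among the abundant non-coding RNAs, Malat1 had 5418 CPM in UPM and 5640 CPM in Cont, and 6403, 8800 and 9950 CPM by rising TZ dose, so the pair lay closer together than either did to the library with the highest dose. The small nucleolar RNAs ran the other way across dose, with a summed level of 1034, 669 and 483 CPM.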
